A study of Mus musculus with 6 samples.

Results

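The genes described here are 37 genes of mitosis and the kinetochore, from the cyclin-dependent kinase that starts mitosis to the proteins that divide the cell. They were chosen as a list of symbols, with earlier results of these data known, and all 37 were found among the 20163 genes that the annotated expression table names. Where a gene had more than 1 probe set (the group of probes that reads 1 transcript), the one with the highest mean over the 6 arrays was used.

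The arrays measured total RNA of cultured adult muscle stem cells, the cells that rebuild skeletal muscle fibres, from C57BL/6J females aged 6 to 8 weeks. The labels name no transgene or deletion in either group. After 2 days of expansion on Matrigel, all cultures spent 6 h without serum and with a soluble BMP receptor (ALK3-Fc, 200 ng/ml), and then received 100 ng/ml BMP6 or its solvent (vehicle) for 1 h. There were 3 arrays per treatment, numbered as biological replicates 1, 2 and 3. The source names give mouse 1, 2 and 3 to the BMP6 samples and mouse 1, 2 and 2 to the vehicle samples. The array names in the deposited table give a shared code to the BMP6 and vehicle arrays of each replicate number, the third included, so the sources disagree on the mouse of vehicle replicate 3. The labels do not say whether a culture pooled several animals.

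A dividing cell copies its chromosomes in S phase and separates them in mitosis. Cyclin B with Cdk1 drives entry into mitosis, the kinetochore builds the attachment between centromere and spindle, the spindle checkpoint delays separation until every attachment is made, and the anaphase-promoting complex, switched on by Cdc20, then marks cyclin B and securin for destruction. Many of these genes are repressed by the DREAM complex in resting cells and activated late in the cell cycle by MuvB with B-Myb and FOXM1, and their RNA is widely used as a measure of how many cells in a culture are dividing. Muscle stem cells are quiescent in resting muscle, divide when cultured, and leave the cell cycle when they differentiate. In bulk RNA, fewer dividing cells and less of these transcripts per cell cannot be told apart.

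All values are log2 RMA expression, the authors' background-corrected and distribution-matched scale, on which a difference of 1 is a 2-fold difference. The 37 genes were bright in all samples, with means over the 6 arrays from 7.69 to 10.76 and a median of 9.22. All 37 were above the median of all genes. Their probe sets lay between the 70.2 and the 97.6 percentile of brightness. Brightness also depends on the probes, so it is not a ranking of transcript amounts between genes. Array medians over all genes ranged from 6.38 to 6.45.

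Of 12 muscle stem cell markers, 10 were above the all-gene median, and Msc and Chrdl2 were under it. Myod1, the myogenic determination factor, lay between 12.05 and 12.30 on the 6 arrays, and Pax7, the defining factor of these cells, between 8.75 and 8.94. All 6 endothelial markers had means under the all-gene median, as had 5 of 6 immune markers and 3 of 6 fibro-adipogenic ones. Absence of a transcript was not called here.

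The members share features of promoter sequence that the list did not use. A window of 300 bases, from 250 before to 50 after the annotated start site, was found in RefSeq (GRCm38.p6) for 31 of the 37, and the first window listed was used for each gene. The windows of Ccna2, Aurkb, Kif20a, Tpx2, Spc24 and Incenp were not found. Both strands were searched for the CCAAT box, bound by NF-Y, and for the 2 spellings of the cell cycle genes homology region or CHR, the site of DREAM and MuvB, TTTGAA and TTCGAA. The box was present in 24 of the 31 windows (77.4%), compared with 38.1% of the 14393 windows of genes in the expression table. A CHR spelling was present in 24 (77.4%) compared with 15.5%, and both motifs were present in 21 (67.7%) compared with 6.36%. Among all 27025 windows of the RefSeq table these shares were 37.9%, 19.4% and 7.70%.

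DNA replication genes, the S phase counterpart, held the CCAAT box nearly as often, in 20 of 30 windows (66.7%), and a CHR spelling in 8 (26.7%). None of 17 windows of muscle differentiation genes held a CHR spelling, and 6 held a CCAAT box (35.3%). A CCAAT box that began 20 to 50 bases before a CHR spelling was found in 14 members (45.2%), compared with 1.08% of the windows of genes in the expression table. The spacing range was chosen after the positions were seen. GGCGCC, a GC-rich element known from BMP-responsive enhancers, was present in 6 of 31 windows (19.4%) and in 17.9% of the genes in the expression table, which is nearly the same share. A match is a run of letters and not a measured binding site.

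**Figure D1:**
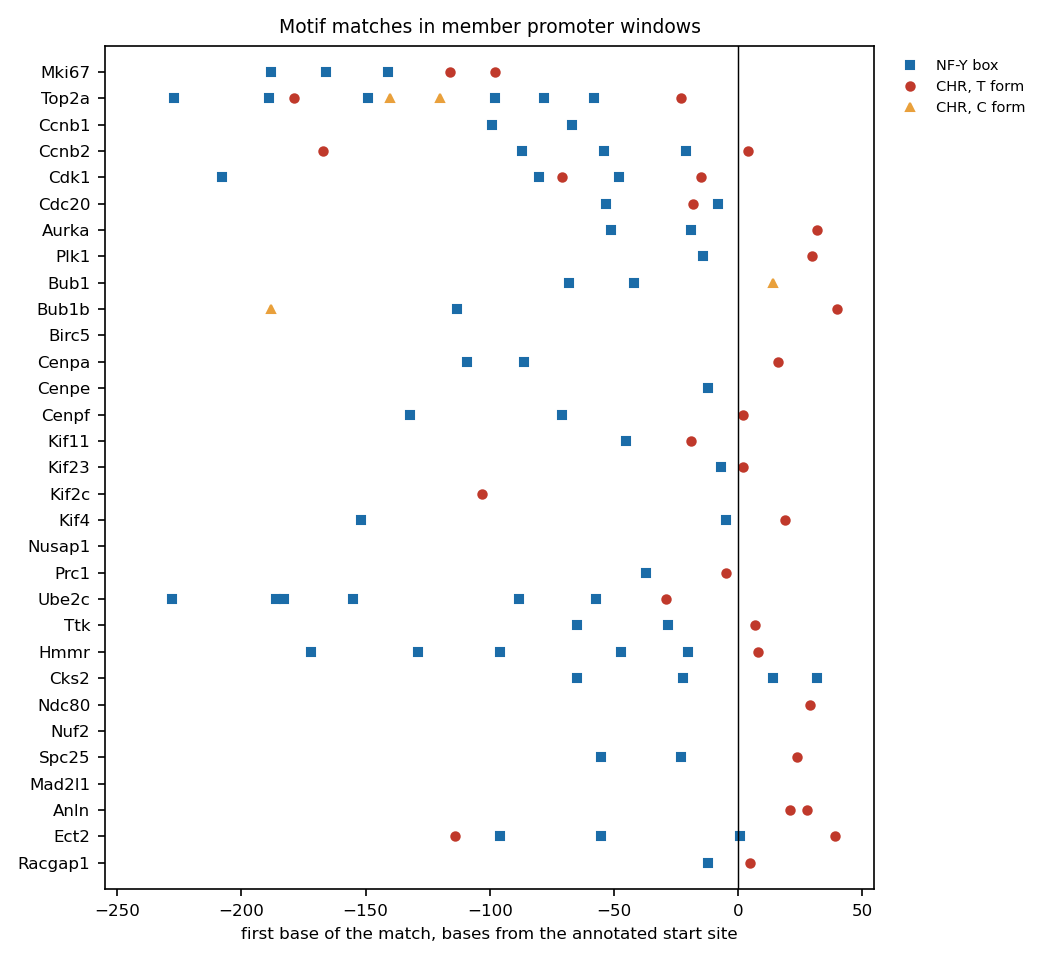
Positions of the NF-Y (CCAAT) box and of the 2 spellings of the CHR (T form TTTGAA, C form TTCGAA) in the promoter windows of 31 member genes. The x axis gives the leftmost base of each match, of either strand, in bases from the annotated start site. Windows are read in the direction of transcription, and each row is 1 gene. In 14 genes a box began 20 to 50 bases before a CHR, and 22 genes had a CHR from 60 bases before the start site onward.

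The 150 bases before the start site are printed for 7 members, with CCAAT boxes and CHR spellings of either strand in capitals. Bub1, Mad2l1 and Cdk1 had the lowest p of a test between replicate numbers given further on, and Anln, Ndc80 and Cdc20 the highest, among members with a window. Kif11 was added after its motifs were seen, as an example with 1 box and 1 CHR. The stretches are Bub1 chr2:127831860-127832009 (minus strand), Mad2l1 chr6:66535071-66535220 (plus), Cdk1 chr10:69352913-69353062 (minus), Anln chr9:22389207-22389356 (minus), Ndc80 chr17:71526858-71527007 (minus), Cdc20 chr4:118437344-118437493 (minus) and Kif11 chr19:37376232-37376381 (plus), all GRCm38.p6.
Bub1: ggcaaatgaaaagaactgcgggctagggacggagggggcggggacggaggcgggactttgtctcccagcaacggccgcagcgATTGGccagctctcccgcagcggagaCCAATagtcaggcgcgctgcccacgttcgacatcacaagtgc
Mad2l1: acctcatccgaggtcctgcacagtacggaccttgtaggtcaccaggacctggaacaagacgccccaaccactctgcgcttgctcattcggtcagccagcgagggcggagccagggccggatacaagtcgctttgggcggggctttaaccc
Cdk1: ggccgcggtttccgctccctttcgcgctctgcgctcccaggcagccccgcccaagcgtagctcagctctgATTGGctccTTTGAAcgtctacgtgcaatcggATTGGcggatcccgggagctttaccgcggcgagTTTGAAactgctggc
Anln: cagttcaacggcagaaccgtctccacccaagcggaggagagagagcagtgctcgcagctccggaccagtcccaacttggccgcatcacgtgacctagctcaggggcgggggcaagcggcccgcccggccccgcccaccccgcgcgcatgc
Ndc80: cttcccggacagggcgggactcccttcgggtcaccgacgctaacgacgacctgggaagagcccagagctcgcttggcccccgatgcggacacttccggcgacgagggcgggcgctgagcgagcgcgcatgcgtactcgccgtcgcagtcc
Cdc20: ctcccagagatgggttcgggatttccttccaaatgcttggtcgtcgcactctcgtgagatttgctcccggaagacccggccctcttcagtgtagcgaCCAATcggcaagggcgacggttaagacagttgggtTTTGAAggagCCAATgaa
Kif11: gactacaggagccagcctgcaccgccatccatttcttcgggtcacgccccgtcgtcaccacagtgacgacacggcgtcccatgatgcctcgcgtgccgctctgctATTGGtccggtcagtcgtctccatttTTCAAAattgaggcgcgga
Cdk1 held 2 boxes and 2 CHR spellings within this stretch, and Cdc20 held 2 boxes around 1 CHR. Bub1 held 2 boxes, and its TTCGAA began 14 bases after the start site, beyond what is printed. The stretches of Mad2l1, Anln and Ndc80 held none of these letters, although Anln and Ndc80 each had TTTGAA just after the start site. Within the printed bases, both ends of that ranking held stretches with and without these motifs. In the full windows Mad2l1, at the low end, was the only 1 of the 7 with neither motif. Whether the motifs go with the ranking was not tested.

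After 1 h of BMP6 none of the 37 genes was called different from vehicle. In limma, with adjustment over all 20163 genes, 0 members passed an adjusted p of 0.05 (17 genes, 0.0843%, did among all genes, all of them higher), and 0 members had an unadjusted p under 0.05 (3.17% of all genes did). The lowest unadjusted p among the members was 0.160, for Ttk. A limma fit blocked on replicate number called 29 genes (0.144%), 0 of them members, and 0 members had an unadjusted p under 0.05 (5.84% of all genes did). No member had BMP6 and vehicle values that did not overlap, where 7.71% of all genes did (3.84% higher and 3.86% lower after BMP6).

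The differences were also small in size. Member log2 fold changes ran from -0.04 (Plk1) to 0.13 (Ttk), with a median of 0.03 compared with -0.0013 over all genes, and standard errors ran from 0.07 to 0.11. The 95% intervals of the 37 fold changes all lay between 0.827-fold and 1.27-fold. A change of 1.5-fold in either direction was thus outside the interval of each of the 37 genes, taken 1 gene at a time. Of the members, 26 were above vehicle by any amount (70.3%, compared with 49.3% of all genes). Without BMP6 replicate 3, or without vehicle replicate 1, 17 were, and without BMP6 replicate 1 the number was 33. The number above vehicle therefore rests on single arrays.

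**Figure D2:**
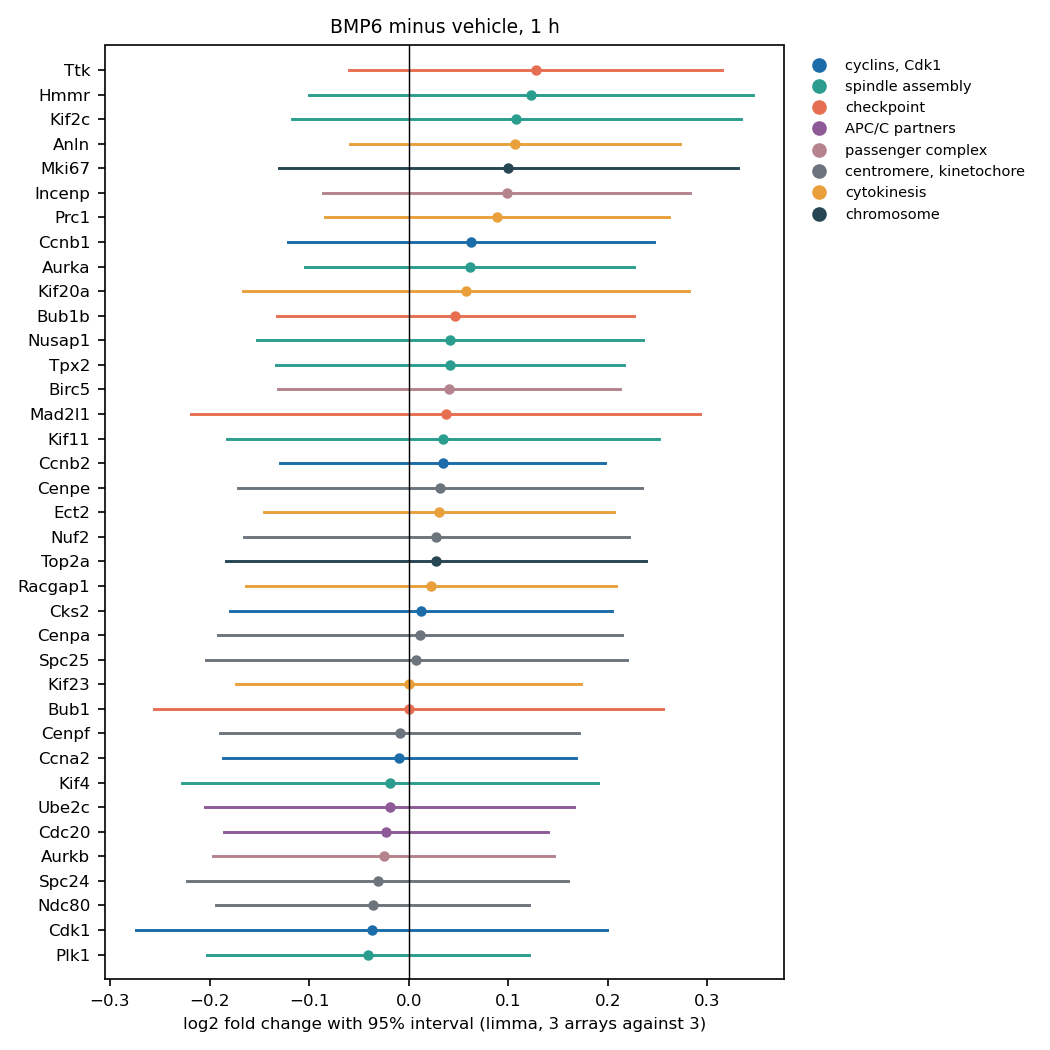
Log2 fold change of each of the 37 genes after 1 h of BMP6 (x axis), with its 95% interval from limma over 3 BMP6 and 3 vehicle arrays. Points are coloured by role. All 37 intervals include 0.

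The cyclins and their kinase form the engine of mitotic entry. Below, values are given in the order of replicates 1, 2 and 3. Ccnb1, cyclin B1, stood at 10.69, 10.85 and 10.83 in BMP6 and at 10.65, 10.70 and 10.83 in vehicle. Ccna2, cyclin A2, which acts in S phase and at mitotic entry, stood at 10.41, 10.55 and 10.52 in BMP6 and at 10.44, 10.47 and 10.59 in vehicle. Cdk1, the kinase that cyclin B activates, stood at 9.35, 9.43 and 9.59 in BMP6 and at 9.46, 9.34 and 9.69 in vehicle. For each of these genes the treatments overlapped, and for Cdk1 both arrays of replicate 3 lay above the other 4. The fold changes were 1.04 (95% interval 0.920 to 1.19) for Ccnb1, 0.994 (0.879 to 1.12) for Ccna2 and 0.974 (0.827 to 1.15) for Cdk1. Ccnb2, cyclin B2, and Cks2, a small Cdk1-binding subunit, had log2 fold changes of 0.03 and 0.01.

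Ccnb1 and Cks2 were the only members with several probe sets (3 each), and their rows are less certain than the others. Probe sets are numbered largely along the chromosomes: for 96.9% of 21734 annotated probe sets, most of the 10 nearest named probe sets on each side belong to the gene's own chromosome. The probe sets used were in such surroundings for 35 members but not for Ccnb1 and Cks2. These may read copies of the gene elsewhere in the genome, which was not tested. The probe set of Ccnb1 that did lie among genes of its own chromosome stood at 9.54, 9.75 and 9.77 in BMP6 and at 9.54, 9.56 and 9.75 in vehicle (log2 fold change 0.07). That of Cks2 stood at 6.93, 6.84 and 7.09 in BMP6 and at 7.01, 6.90 and 6.83 in vehicle (log2 fold change 0.04). Both of these were within 0.1 of vehicle on average. The remaining probe sets of Ccnb1 and Cks2, also among genes of other chromosomes, had log2 fold changes of 0.14 and 0.06. That of Ccnb1 was larger than for any probe set used. It stood at 8.11, 8.55 and 8.65 in BMP6 and at 8.11, 8.05 and 8.72 in vehicle, which overlap.

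Mitotic kinases and spindle proteins made up the largest group, with 8 members. Plk1, polo-like kinase 1, which promotes mitotic entry and spindle assembly, stood at 10.49, 10.45 and 10.40 in BMP6 and at 10.54, 10.45 and 10.48 in vehicle. It had the lowest fold change of all members, 0.972 (0.869 to 1.09), with an unadjusted limma p of 0.581. Kif2c, the kinesin that takes microtubules apart at the centromere, stood at 9.61, 9.80 and 9.80 in BMP6 and at 9.45, 9.66 and 9.79 in vehicle. Hmmr, a microtubule-binding protein of the spindle poles, stood at 8.65, 8.69 and 8.79 in BMP6 and at 8.41, 8.57 and 8.78 in vehicle. In both, vehicle replicate 1 was the lowest array, and replicate 3 of either treatment was at or near the top. The fold changes were 1.08 (0.922 to 1.26) for Kif2c and 1.09 (0.933 to 1.27) for Hmmr.

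Kif11, the kinesin that pushes spindle poles apart, also had vehicle replicate 1 lowest, and vehicle replicate 3 highest, at 9.27, 9.43 and 9.46 in BMP6 and at 9.22, 9.32 and 9.53 in vehicle. Kif4, a kinesin carried on chromosomes, stood at 8.02, 8.15 and 8.24 in BMP6 and at 8.09, 8.07 and 8.31 in vehicle. Nusap1, which bundles microtubules around chromosomes, was dimmer, at 7.84, 7.99 and 8.08 in BMP6 and at 7.95, 7.84 and 8.00 in vehicle. Aurora A (Aurka), the kinase of the spindle poles, and its activator Tpx2 had log2 fold changes of 0.06 and 0.04. Of the 8 genes, 6 were above vehicle and 2 below, and 0 passed.

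The spindle checkpoint kinase Ttk, also known as Mps1, had the largest fold change of the 37, 1.09 (95% interval 0.959 to 1.24). It stood at 7.71, 7.87 and 7.93 in BMP6 and at 7.68, 7.67 and 7.79 in vehicle, and the treatments overlapped because BMP6 replicate 1 lay under vehicle replicate 3. Bub1, a checkpoint kinase that marks centromeric chromatin, stood at 8.70, 8.77 and 8.92 in BMP6 and at 8.59, 8.77 and 9.03 in vehicle. Mad2l1, which encodes the Mad2 protein that holds Cdc20 inactive, stood at 9.29, 9.48 and 9.62 in BMP6 and at 9.37, 9.28 and 9.63 in vehicle. Both varied more between replicate numbers than between treatments: the fold change was 1.00 (0.837 to 1.19) for Bub1 and 1.03 (0.860 to 1.23) for Mad2l1. Bub1b, the checkpoint protein BubR1, had a log2 fold change of 0.05.

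In the 2 partners of the anaphase-promoting complex the highest array was not one of replicate 3. Cdc20 stood at 8.80, 8.89 and 8.78 in BMP6 and at 8.89, 8.83 and 8.81 in vehicle, with all 6 arrays close together. Ube2c, the enzyme that supplies ubiquitin to the complex, was highest in vehicle replicate 1 (9.36) and lay between 9.11 and 9.24 on the other arrays. Both had log2 fold changes of -0.02. In the chromosomal passenger complex, which corrects faulty attachments, Incenp, its scaffold, stood at 9.13, 9.26 and 9.20 in BMP6 and at 8.97, 9.17 and 9.16 in vehicle. The kinase Aurkb and the subunit Birc5, known as survivin, had log2 fold changes of -0.03 and 0.04, compared with 0.10 for Incenp (SE 0.08, unadjusted limma p of 0.260).

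At the kinetochore, the 4 subunits of the NDC80 complex, which grips microtubules, were all measured. Ndc80 itself stood at 8.63, 8.68 and 8.62 in BMP6 and at 8.72, 8.66 and 8.65 in vehicle, and Spc25 at 7.59, 7.67 and 7.83 in BMP6 and at 7.56, 7.69 and 7.82 in vehicle. Ndc80 hardly varied, while Spc25 had both replicate 3 arrays above the other 4. Nuf2 and Spc24 had log2 fold changes of 0.03 and -0.03, and Ndc80 and Spc25 of -0.04 and 0.01. Cenpf, a large outer kinetochore protein, stood at 8.29, 8.36 and 8.28 in BMP6 and at 8.26, 8.25 and 8.45 in vehicle. Cenpa, the histone H3 variant that marks the centromere, and Cenpe, a kinetochore kinesin, had log2 fold changes of 0.01 and 0.03. Of these 7 genes 4 were above vehicle and 3 below.

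Among cytokinesis genes, Anln (anillin, a scaffold of the contractile ring) stood at 10.51, 10.46 and 10.40 in BMP6 and at 10.33, 10.30 and 10.41 in vehicle. Its BMP6 and vehicle values differed in replicates 1 and 2 and met in replicate 3, and its fold change was 1.08 (0.960 to 1.21). Prc1, which bundles the microtubules of the midzone, stood at 9.43, 9.51 and 9.46 in BMP6 and at 9.34, 9.31 and 9.48 in vehicle. Kif20a, a midzone kinesin, stood at 9.47, 9.71 and 9.65 in BMP6 and at 9.40, 9.56 and 9.71 in vehicle. The fold changes of Prc1 and Kif20a were 1.06 (0.943 to 1.20) and 1.04 (0.891 to 1.22). The centralspindlin subunits Kif23 and Racgap1 and the exchange factor Ect2, which they recruit to start furrowing, had log2 fold changes of 0.00, 0.02 and 0.03.

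The general markers of proliferation were not called either. Mki67, the Ki-67 protein that coats mitotic chromosomes, stood at 10.12, 10.33 and 10.27 in BMP6 and at 9.98, 10.11 and 10.33 in vehicle, with a fold change of 1.07 (0.914 to 1.26). Top2a, the topoisomerase that untangles sister chromatids, stood at 9.85, 9.85 and 9.97 in BMP6 and at 9.75, 9.79 and 10.05 in vehicle (1.02-fold, 0.881 to 1.18). In both genes vehicle replicate 1 was the lowest array and vehicle replicate 3 the highest or joint highest.

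Within replicate numbers the treatments compared differently. In replicate 2, 36 of the 37 genes were above vehicle, with a median difference of 0.09 (52.6% of all genes were above vehicle there). In replicate 1 the number was 20 (54.1%, compared with 48.5% of all genes), with a median of 0.03. In replicate 3 it was 15 (40.5%, compared with 49.8% of all genes), with a median of -0.01. Each of these compares 1 array with 1 array and has no test. Vehicle replicate 2 was under the gene's mean for 31 of the 37 genes, and BMP6 replicate 2 was above it for 29.

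**Figure D3:**
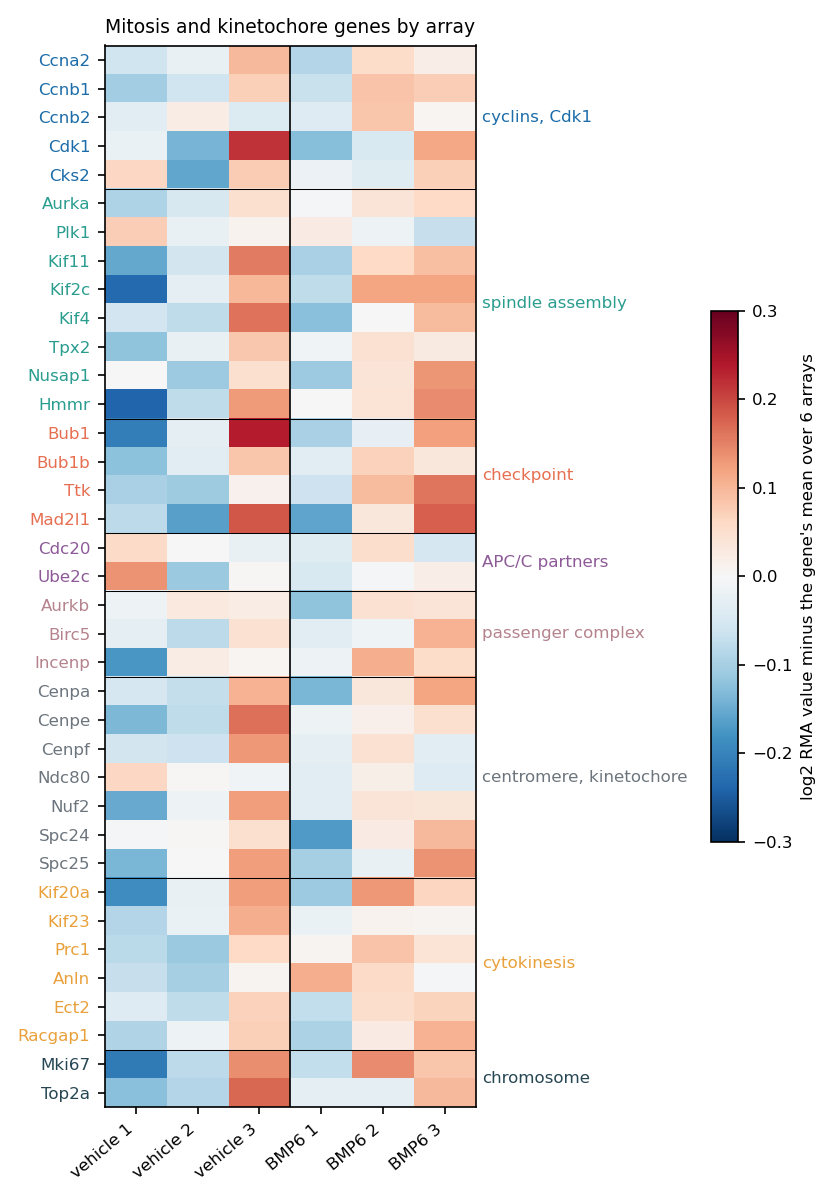
Each row is 1 of the 37 genes, grouped by role, and each column 1 array. Colour gives the log2 RMA value minus the gene's mean over the 6 arrays, from -0.3 (blue) to 0.3 (red). The replicate 3 columns are above the mean for 34 (vehicle) and 32 (BMP6) genes, and the replicate 1 columns for 5 and 4.

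The replicate numbers themselves were compared in a fit with treatment and replicate number, in which each number has 2 arrays. Replicate 3 stood above replicate 1 in 32 of the 37 genes, with a median difference of 0.14 on the log2 scale, which is small but shared. Over all genes 46.0% were higher in replicate 3, with a median of -0.01. The all-gene shares given here include many dimmer genes and were not matched to the members for brightness. Both arrays of replicate 3 lay above both of replicate 1 in 30 members (81.1%), compared with 23.3% of all genes, and below both in 1 member, Plk1, compared with 27.2% of all genes. Relative to replicate 2, replicate 3 was higher in 31 of 37 (median 0.07), compared with 48.7% of all genes. Replicate 2 was above replicate 1 in 30 of 37 (median 0.07), compared with 46.3% of all genes. With each array centred on its median the difference between replicates 3 and 1 had a median of 0.20 and was positive in 36 of 37. Centring adds the same amount to this difference in every gene, so it is not separate support. Array medians were 6.45 and 6.44 in replicate 1 and 6.39 and 6.38 in replicate 3 (BMP6, vehicle). Upper quartiles went the other way, at 8.01 and 8.02, then 8.04 and 8.05, and the members are bright genes.

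No single member was called different between replicate numbers. The limma F test across the 3 numbers gave an adjusted p of 0.264 to 0.961 for the members, and 0 of 37 passed (79 of all genes, 0.392%, did). At an unadjusted p under 0.05 there were 5 members, Bub1, Mad2l1, Cdk1, Kif2c and Spc25, or 13.5% of the 37, which is near the 14% of all genes. In the contrast of replicates 3 and 1 alone, 12 of 37 had an unadjusted limma p under 0.05, a larger share than the 16.4% of all genes. In that contrast 0 members passed after adjustment over all genes (107 genes, 0.531%, did). Replicates 1 and 2, and 2 and 3, also gave 0 members (0.134% and 0.0645% of all genes). The test sets the difference between numbered cultures against the spread within pairs of arrays, which may share a mouse, so it does not speak of mice in general.

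The largest difference between replicates 3 and 1 was that of Bub1, at 1.26-fold (95% interval 1.09 to 1.45, limma adjusted p = 0.142). It passed under 1 alternative, with a trended and robust variance prior (adjusted p = 0.0371). Mad2l1 followed at 1.23-fold (1.06 to 1.43) and Kif2c at 1.20-fold (1.04 to 1.38). Mki67, Hmmr, Spc25 and Kif11 were each at 1.19-fold, and Kif20a and Cdk1 at 1.18-fold. These 9 genes come from 6 of the 8 roles, all but the anaphase-promoting complex and the passenger complex.

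At the other end stood 5 genes, among them the kinase Plk1 and the partners of the anaphase-promoting complex. Plk1 had a replicate 3 to 1 ratio of 0.947 (0.828 to 1.08), Cdc20 of 0.968 (0.843 to 1.11), Ndc80 of 0.973 (0.850 to 1.12), Ube2c of 0.977 (0.839 to 1.14) and Anln of 0.987 (0.856 to 1.14). These 5 were the only members not higher in replicate 3, and each interval includes 1. Whether they differ from the others in this respect was not tested. No member's interval for replicate 3 over replicate 1 reached 1.5-fold.

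**Figure D4:**
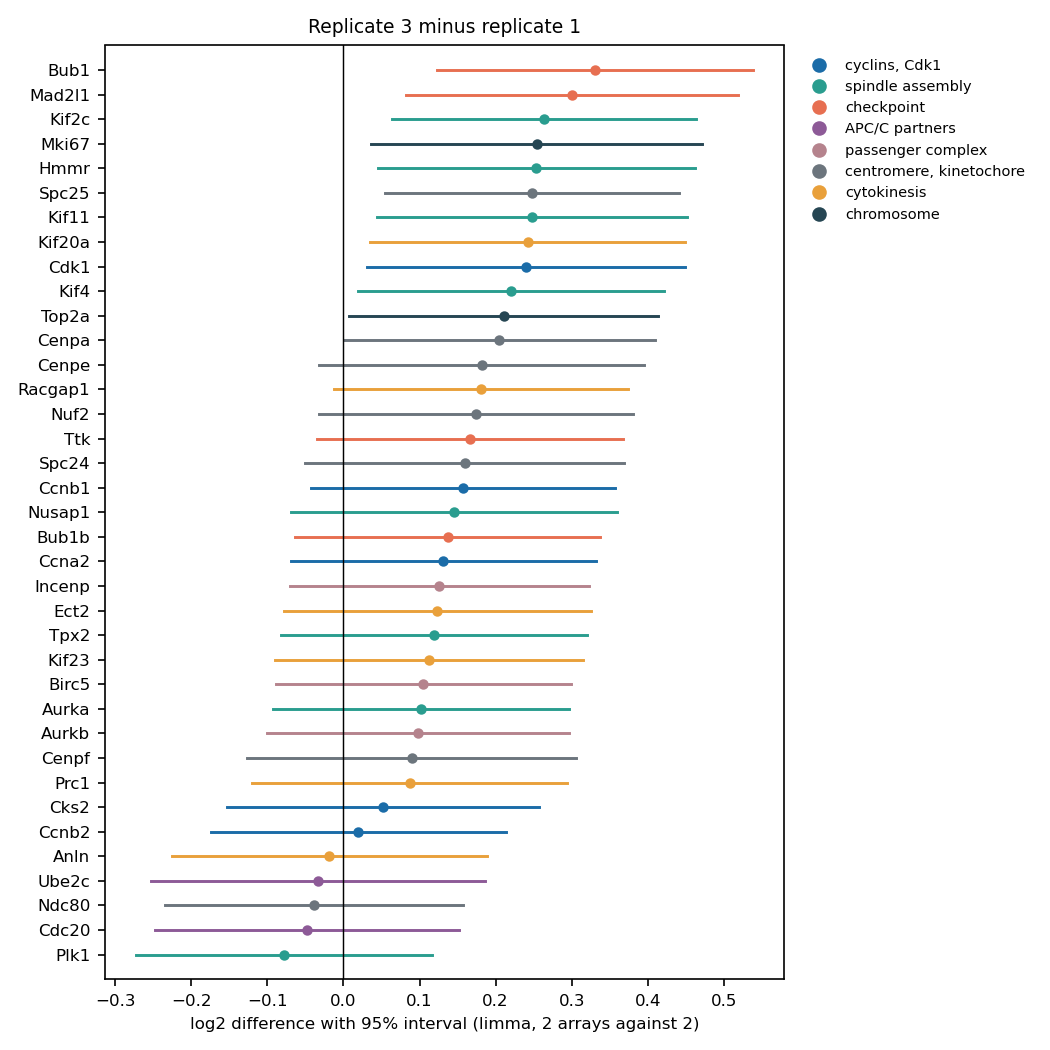
Difference between replicate 3 and replicate 1 for each of the 37 genes (x axis, log2), with its 95% interval from limma over 2 arrays of each number and with treatment in the fit. Points are coloured by role. 32 genes lie to the right of 0, and none passed after adjustment over all genes.

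Related genes outside the 37 were not called for BMP6 either, although single genes differed by more than any member. In that comparison, limma called 0 of 37 other centromere and kinetochore genes, 0 of 29 other spindle and cytokinesis genes, 0 of 17 condensin and cohesin genes, 0 of 15 subunits and regulators of the anaphase-promoting complex, 0 of 17 regulators of mitotic entry and 0 of 36 DNA replication genes. None of these genes had an unadjusted p under 0.05 in that fit. Their median log2 fold changes were 0.02, 0.02, 0.02, 0.03, 0.01 and 0.05 in that order. The log2 fold change farthest from 0 was -0.24, for Pttg1 (securin, which holds separase inactive), named after its values were seen. It stood at 5.97, 5.87 and 6.13 in BMP6 and at 6.34, 6.01 and 6.36 in vehicle, which overlap, with an unadjusted limma p of 0.0518 (0.00993 and adjusted p = 0.689 with replicate number as a block). BMP6 and vehicle values did not overlap in 1 higher and 2 lower genes of the other centromere and kinetochore list and 1 lower regulator of mitotic entry. The same held for 1 higher gene of the anaphase-promoting complex and 1 higher DNA replication gene. Over all genes 7.71% did not overlap. The other spindle and cytokinesis list and the condensin and cohesin list held no such gene. Hjurp, Kifc1, Depdc1b and Foxm1 had no probe set under those symbols. Of 10 CDK inhibitors and pocket proteins, which hold cells out of the cycle, 0 were called or had an unadjusted p under 0.05, and the median was -0.03.

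Between replicates 3 and 1 the same lists had medians of 0.14, 0.15, 0.18, 0.10, 0.13 and 0.16, and 31, 28, 17, 11, 14 and 35 of their genes were higher in replicate 3. No gene of these lists passed the limma F test between replicate numbers. At an unadjusted p under 0.05 in that test there were 9 of 37, 3 of 29, 4 of 17, 2 of 15, 2 of 17 and 11 of 36. Over all genes the share was 14%. The CDK inhibitors and pocket proteins had a median of -0.03, and 0 of 10 passed (4 of 10 at an unadjusted p under 0.05). Pcna, the sliding clamp of the replication fork, stood at 11.38, 11.61 and 11.71 in BMP6 and at 11.26, 11.51 and 11.63 in vehicle. Mybl2, the B-Myb partner of MuvB, stood at 8.70, 9.08 and 9.03 in BMP6 and at 8.65, 8.84 and 9.03 in vehicle, and Cenpi, of the inner kinetochore, at 7.24, 7.32 and 7.60 in BMP6 and at 6.99, 7.11 and 7.44 in vehicle. In all 3 genes replicate 1 was the lowest within each treatment. Their F test adjusted p values were 0.219, 0.239 and 0.177.

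Most genes of muscle differentiation were lower in replicate 3. Of 21, 17 had both replicate 3 arrays below both replicate 1 arrays, and the other 4 (Ckm, Cdh15, Ttn and Chrna1) had a higher mean in replicate 3. In the limma F test between replicate numbers 11 passed, all 11 lower in replicate 3 than in replicate 1, and the median difference of the 21 was -0.61. Myh3, the embryonic myosin heavy chain, stood at 8.88, 7.89 and 5.84 in BMP6 and at 8.65, 7.89 and 5.86 in vehicle (F test adjusted p = 1.98e-06). Actc1, cardiac actin, which young muscle cells also make, stood at 10.42, 9.30 and 7.69 in BMP6 and at 10.39, 9.21 and 7.63 in vehicle (adjusted p = 1.98e-06). Tnni1, slow skeletal troponin I, stood at 8.20, 7.09 and 6.09 in BMP6 and at 8.14, 7.21 and 6.08 in vehicle. The replicates did not overlap in any of these genes, and same-numbered BMP6 and vehicle arrays differed by at most 0.23. For BMP6, 0 of the 21 were called in limma or had an unadjusted p under 0.05, with a median log2 fold change of 0.06.

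The summed level of the 21 genes (log2 of the sum of linear values) was 14.11 in both replicate 1 arrays, 13.89 and 13.80 in replicate 2 and 13.53 and 13.62 in replicate 3. Of the 6 fibro-adipogenic markers, 1 passed the F test, the matrix proteoglycan Dcn, which stood at 6.09, 6.44 and 7.06 in BMP6 and at 6.37, 6.63 and 6.98 in vehicle. The summed level of those 6 was 8.64, 8.93 and 9.12 in BMP6 and 9.06, 9.10 and 9.19 in vehicle. Cd34, a surface marker of quiescent muscle stem cells that other cells of muscle also carry, and Myf5, a factor of committed stem cells, passed the limma F test among the 12 stem cell markers (adjusted p = 0.00616 and 0.0295). For BMP6, limma called 1 of those 12, the chemokine receptor Cxcr4, which rose (adjusted p = 0.0257). Of the endothelial, immune and fibro-adipogenic markers 0 were called for BMP6, with 0, 1 and 2 at an unadjusted p under 0.05, and all 6 fibro-adipogenic markers were below vehicle. No endothelial or immune marker passed the F test. What part these shifts have in the differences of the mitosis genes between replicate numbers was not tested.

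**Figure D5:**
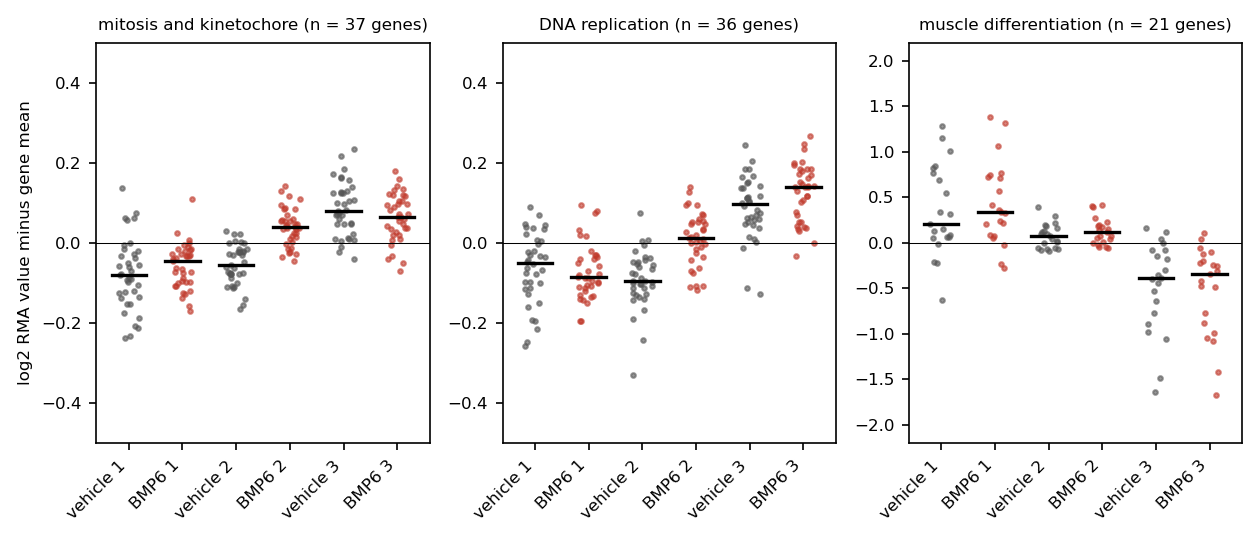
Log2 RMA value minus the gene's mean over 6 arrays, for the 37 mitosis and kinetochore genes, 36 DNA replication genes and 21 muscle differentiation genes, on each array (grey, vehicle; red, BMP6). Each point is 1 gene, bars are medians, and the third panel has a wider scale. The medians of the mitosis genes are -0.08 and -0.05 in replicate 1 and 0.08 and 0.07 in replicate 3 (vehicle, BMP6), and those of the differentiation genes are 0.21 and 0.34, then -0.38 and -0.34.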

How the data were processed

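The authors' deposited values are log2 expression from RMA, 1 per probe set and array, and the submitters' processing notes name oligo as the software. The array type, the software versions and the annotation's origin were not given in the sources used here. Because RMA matches the distributions of the arrays, a change common to nearly all genes is removed, and background correction narrows differences at low values. The 2 deposited tables differed by at most 5e-09. Of 34760 probe sets, 21893 had a symbol, which left 20163 genes with 1 probe set each.

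BMP6 and vehicle were compared with limma 3.58.1 in R 4.3.3 (lmFit, eBayes, two-sided, Benjamini-Hochberg over all genes) on all 6 arrays with no covariate, and replicate numbers with a moderated F test and 3 contrasts in a fit that also held treatment. Both fits were checked on simulated data with planted changes larger than any member difference reported here. The check therefore does not show how well differences of the size seen in the members would be found. Precision is limited by the number of arrays. The labels call the replicates biological, but where they do not name separate mice the p-values measure only the spread between these samples, which may be technical.

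The members and gene lists were chosen with earlier results of these data known. By rule, array values are given for the 5 brightest and 5 dimmest members, the 6 lowest in BMP6 p, and the 8 lowest and 4 highest in F test p. Ube2c and Top2a were added after their values were seen. From the other lists, genes among the 3 lowest in F test p are named, and Pax7, Myod1, Dcn, Cd34, Myf5 and Cxcr4 as markers.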

Additional observations from a re-analysis of the deposited data

How the results depend on the processing

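The result that 0 of the 37 genes were called for BMP6 held under all 14 alternatives, which were replicate number as a fixed or random block, mouse as a term, dim genes left out, averaged probe sets, centred arrays, a trended prior, each array left out and, added after seeing the data, removal of both replicate 3 arrays. At an unadjusted limma p under 0.05 there were 0 members in 13 of them and 1 without vehicle replicate 3. The median member log2 fold change ranged from -0.01 to 0.08. Shared codes in the array names pair the arrays by replicate number, while the source name of vehicle replicate 3 gives another mouse. After removal of group means, same-numbered arrays correlated across genes at 0.31, 0.05 and 0.43, and vehicle replicate 2 was nearer to BMP6 replicate 1 (0.18). The replicate block called 29 genes instead of 17, and 0 members. All-gene counts for BMP6 were 32 with a random block, 26 with centred arrays, 27 with a trended prior, 3 with all probe sets tested (more tests), and 7 to 15 with 1 array left out. Those for replicate numbers, 79 in all, were 43 without treatment, 235 without the dimmest 25% (fewer genes tested), 139 with centred arrays, 287 with a trended prior, 0 in limma with all probe sets (more tested, 3250 at an unadjusted p under 0.05; also chosen after seeing the data) and 21 to 95 with 1 array left out. Between replicate numbers 0 members passed the F test under the 11 alternatives, and 1, Bub1, passed in a single contrast with a trended prior. The remarks in brackets on the number of tests describe those settings. The cause of these changes in counts was not tested for any setting. Leaving out an array unbalances the replicate numbers.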
